A study of Mus musculus with 9 samples.

Results

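AdvSca1-SM cells, resident vascular progenitors that descend from smooth muscle and carry Sca1, were compared in 2 states: kept as progenitors (Stem) and exposed to TGF-β1 together with the Brg1 bromodomain inhibitor PFI-3 (Both). The comparison asked which features of the TGF-β–differentiated state were still present under the inhibitor. It used 6 of the 9 RNA-Seq libraries, 3 per group, and all 14879 genes of the 55416 in the table that passed a filter on low counts, whatever their direction. The 3 libraries with TGF-β1 alone (TGF-β) are given beside them as the state without inhibitor. The cells were sorted as YFP+ and Sca1+ from the aorta and carotid arteries of pooled 8-week-old SM22α-Cre-YFP mice and used at passages 2 to 6. All were growth arrested for 24 h in 0.1% FBS with FGF2 (1 ng/mL) and EGF (5 ng/mL), and all received 0.1% DMSO for the 72 h of treatment. Both had 5 ng/mL TGF-β1 and 50 μM PFI-3 in DMEM with 0.1% FBS, TGF-β had 5 ng/mL TGF-β1 in the same medium, and Stem had neither agent. The study's text places the Stem cells in stem cell medium, which for maintenance held 10% FBS and the same growth factors, whereas the treatment label can be read as DMEM for every cell. Medium, TGF-β1 and PFI-3 therefore change together between Stem and Both and cannot be told apart, and cells given PFI-3 alone or DMEM alone were not analysed here. The Cre is driven by the SM22α promoter, the mice were pooled, and the study names rare Sca1+ medial smooth muscle cells as a possible part of the sort.

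TGF-β1 signals through paired serine/threonine kinase receptors to SMAD2 and SMAD3, which enter the nucleus and switch on matrix, cytoskeletal and feedback genes. A fibroblast or progenitor that responds in this way becomes a myofibroblast, a contractile cell that secretes collagen and elastin and stiffens the adventitia after vascular injury. Brg1, the product of *Smarca4*, is the ATPase of the BAF complex, which slides nucleosomes to open regulatory DNA, and its bromodomain reads acetylated histones.

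Libraries held 35686291 to 37262375 counts in Stem, 42683050 to 47741128 in Both and 39453841 to 43194424 in TGF-β. Across genes, replicate libraries had Spearman's rho of 0.994 or more, and the biological coefficient of variation was 6.13%. Stem 2 stood apart from the other Stem libraries through *Lars2*, at 57811 normalized counts against 4141 and 4605, and through the gene ENSMUSG00000119584, for which no symbol was at hand, at 1902250 against 139368 and 184162. Neither gene is used below, and without Stem 2 the number of genes called was 3505 in place of 3385. The myofibroblast markers summed to 8670 to 8950 CPM (counts scaled to the library total) in Stem and 19900 to 20900 in Both, and the adventitial progenitor markers to 1510 to 1630 and 446 to 451. *Fn1* and *Col1a1* gave most of the myofibroblast sum. Its *Tnc* had 8115, 9752 and 7792 raw counts in Stem and only 6984, 6900 and 6627 in Both. *Pdgfra* gave most of the progenitor sum in Stem, while *Pi16* (485, 488 and 448 raw counts against 4119, 4190 and 4148) and *Klf4* were higher in Both. Smooth muscle markers lay at 262 to 349 and 416 to 436 CPM, endothelial markers at 2.84 to 6.6 and 1.26 to 1.66, and adipocyte markers at 4.51 to 5.67 and 0.914 to 1.26. *Acta2* and *Tagln* gave most of the smooth muscle sum, while *Cnn1*, *Myh11* and *Lmod1* had fewer raw counts in Both than in Stem. The endothelial *Kdr* went against its sum, with 0, 0 and 2 raw counts in Stem and 34, 32 and 24 in Both. Chondrocyte markers lay at 73.1 to 86.3 CPM in Stem and 80.9 to 87.1 in Both. *Sox9* and *Comp* gave most of that sum and hid higher values of the other members in Both. Raw counts in Stem and Both were 32, 27 and 34 against 676, 708 and 608 for *Col2a1*. They were 6, 4 and 4 against 101, 149 and 126 for *Matn3*, and 1, 0 and 0 against 10, 18 and 15 for *Acan*. Leukocyte markers summed to 3.6 to 3.97 CPM in Stem and 6.87 to 7.29 in Both, mostly through *Csf1r* and *Lyz2*, with *Adgre1*, *Aif1* and *Itgam* at 0 in every library. Schwann markers lay at 4.22 to 5.23 and 9.65 to 10.6 CPM, with *Sox10* at 0. The part of such cells in the results was not tested. One protocol label names hepatic tissue, but 6 of the 7 hepatocyte markers had at most 3 counts in every library and *Ahsg* gave most of the sum of 5.85 to 7.17 CPM in Stem. Mitochondrial genes took 14.2% to 15.4% of counts in Stem and 14.3% to 14.8% in Both. In bulk RNA a smaller share of cells and less RNA per cell cannot be told apart.

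Genes were called at an adjusted p below 0.05 with a log2 fold change above 1 or below -1, and "rose" and "fell" are used of called genes only. Every adjusted p comes from the quasi-likelihood test of edgeR, adjusted after Benjamini and Hochberg over all genes tested, and every fold change is Both over Stem unless another pair is named. Values per library are normalized counts, which are counts scaled to one common library size and not corrected for gene length, so they compare libraries and not genes. Between Stem and Both, 3385 genes were called, 22.8% of those tested, of which 1421 (9.55%) were higher in Both and 1964 (13.2%) lower. Over all genes the log2 fold change had a median of -0.0046. Among called genes the median was 1.63 for those higher and -1.59 for those lower, and 118 rose and 150 fell by more than 16-fold. The 6 libraries fell apart by group without overlap in 3345 of the 3385, beside 11109 of all 14879 genes tested. Called-higher genes held 5% of all counts in Stem, 15.3% in Both and 17.5% in TGF-β, and called-lower genes held 11.7%, 3.1% and 2.93%. At the other end, 9699 genes had a 95% interval of the log2 fold change that lay within -1 and 1. The p-values measure the spread between these libraries, which the study describes as independent replicates.

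**Figure D1:**
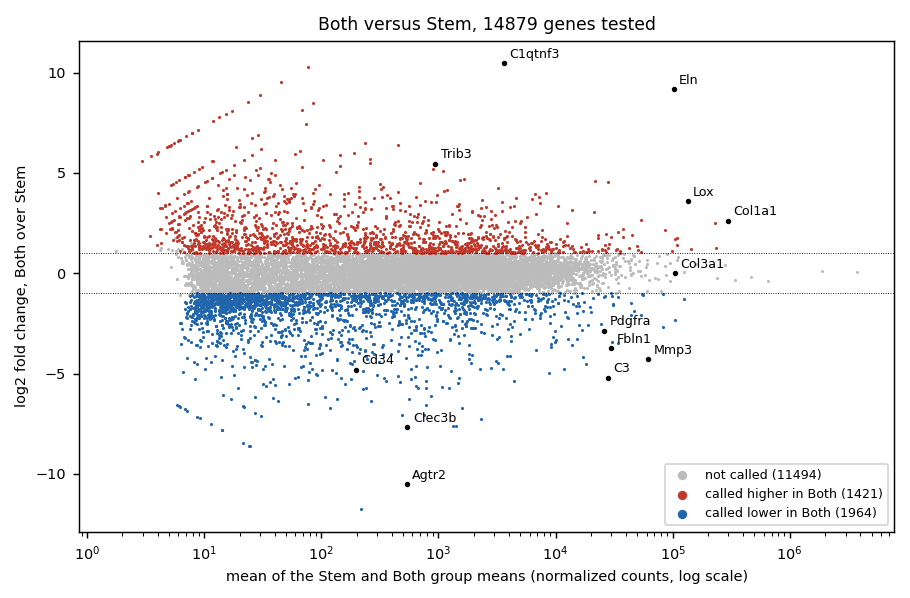
Log2 fold change of Both over Stem (vertical axis) against the mean of the Stem and Both group means in normalized counts (horizontal log axis), 1 point per tested gene. Red points are the 1421 genes called higher and blue points the 1964 called lower, dotted lines mark 2-fold, and *Col3a1* lies on the zero line while *Eln* and *C1qtnf3* lie above 9.

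The same fit gave 3739 called genes between Stem and TGF-β, 25.1% of those tested, with 1575 (10.6%) higher and 2164 (14.5%) lower. Between TGF-β and Both 94 genes were called, 0.632% of those tested, with 24 (0.161%) higher and 70 (0.47%) lower in Both. These comparisons share libraries with the one described here, so their values are given side by side for each gene and not as independent evidence.

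**Figure D2:**
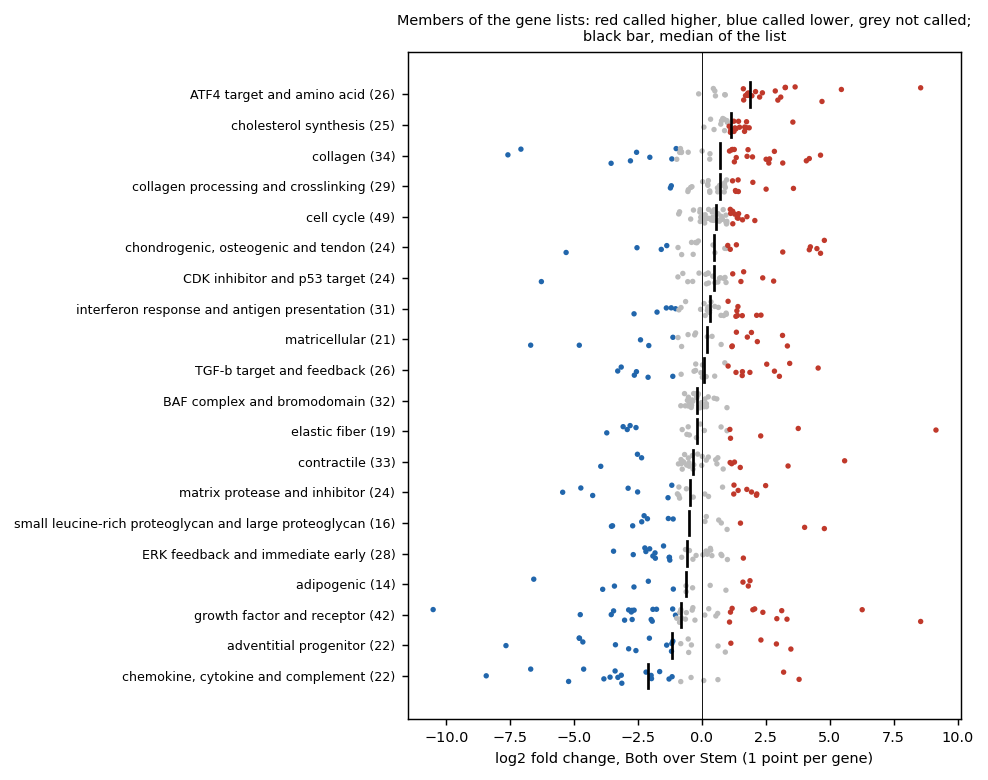
Log2 fold change of Both over Stem for every tested member of 20 gene lists, with the number tested in brackets. Red points rose, blue points fell and grey points were not called, and the black bar is the median, which runs from 1.90 for ATF4 targets down to -2.09 for chemokines, cytokines and complement.

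Elastic fiber genes moved in both directions. Elastin, the elastic core protein of the arterial wall, had the largest rise of the matrix lists, whereas several fibulins and microfibril proteins fell. *Eln* (ENSMUSG00000029675) had 262, 451 and 365 normalized counts in the Stem libraries, 210265, 226092 and 177002 in Both, and 414025, 468605 and 419909 in TGF-β. The 3 groups did not overlap, and Both lay between the other two. The log2 fold change was 9.15 (standard error 0.189, adjusted p = 1.73e-12, edgeR), against 10.24 for TGF-β over Stem, and Both was lower than TGF-β by a log2 fold change of -1.09 (adjusted p = 0.00039, edgeR). *Mfap4*, a microfibril-associated glycoprotein, rose from 634 ± 116 to 8646 ± 473 (SD, n = 3 each), or 3.77 on the log2 scale, and *Mfap5* rose by 2.30. *Fbn1* (fibrillin-1, the microfibril scaffold) and *Fbln5*, which guides elastin onto it, rose by 1.12 and 1.09. *Fbln1*, a basement membrane and elastic fiber component, had 57177, 54191 and 54520 in Stem and 4107, 4163 and 4313 in Both, a log2 fold change of -3.72 (adjusted p = 6.9e-14, edgeR). *Fbln7* and the microfibril gene *Mfap2* fell with it, at -3.08 and -2.81. Of 19 tested members of the list 5 rose (26.3%) and 5 fell (26.3%), beside 9.55% and 13.2% of all genes. The median was -0.21.

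Of the fibrillar collagens most remained above their Stem level under the inhibitor, but *Col3a1*, *Col24a1* and *Col27a1* did not. *Col1a1*, the main chain of type I collagen, had 77278, 90561 and 82739 in Stem, 520779, 522923 and 493626 in Both and 702840, 732988 and 686626 in TGF-β. Each Both library lay above all Stem libraries and below all TGF-β libraries. The log2 fold change was 2.62 (standard error 0.0625, adjusted p = 4.99e-12, edgeR), beside 3.08 for TGF-β over Stem. *Col1a2*, *Col5a1* and *Col5a2*, which assemble with or nucleate type I fibrils, rose by 1.27, 1.80 and 2.65. *Col11a1*, a fibril-nucleating chain of cartilage, rose from 2788 ± 194 to 24958 ± 1386 (SD, n = 3 each), and *Col2a1*, its partner, from 33.2 ± 3.73 to 614 ± 82.7, where TGF-β had 1617 ± 90.3. *Col8a2*, a network-forming short-chain collagen, rose by 2.84, and the basement membrane chains *Col4a1* and *Col4a2* by 1.34 and 1.27. *Col27a1*, a fibrillar chain of cartilage, stood apart with a log2 fold change of -2.79 (TGF-β over Stem, -2.88), and *Col24a1* was at -0.87.

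*Col3a1*, the chain of type III collagen, was back at its Stem level. It had 85469, 127087 and 100506 normalized counts in Stem and 96091, 121698 and 97193 in Both, so that the 2 groups covered the same range, while TGF-β had 199137, 232577 and 201328. The log2 fold change of Both over Stem was 0.01 with a 95% interval from -0.27 to 0.29 (adjusted p = 0.955, edgeR), and its sign turned with the scaling and with the libraries used. Against TGF-β it was -1.01 (adjusted p = 0.000634, edgeR), just past the 2-fold minimum.

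Among the collagens that fell, chains of type VI collagen, a part of the pericellular matrix, led. *Col6a5* had 2358, 3228 and 2442 in Stem and 19.8, 11.8 and 9.65 in Both, a log2 fold change of -7.59 (adjusted p = 7.15e-12, edgeR), and *Col6a6* and *Col28a1* had log2 fold changes of -7.08 and -2.04. In all, 17 of the 34 tested collagen genes (50.0%) rose and 8 (23.5%) fell, beside 9.55% and 13.2% of all genes. The median was 0.70 beside 1.06 for TGF-β over Stem. Keeping only genes with a mean of at least 10 counts moved that median to 1.07. Tested directly against TGF-β, 26 of the 34 were lower in Both at an adjusted p below 0.05 and 0 higher, with 5 past the 2-fold minimum and 0 higher past it (edgeR). Over all 14879 genes 800 were lower at the same adjusted p and 527 higher.

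Among the enzymes that crosslink collagen and elastin, 3 of the lysyl oxidase family rose. Lysyl oxidase, *Lox*, which oxidizes lysines so that fibers can crosslink, had 17163, 25729 and 19177 in Stem, 235936, 262460 and 244144 in Both and 241886, 257626 and 250920 in TGF-β. Both and TGF-β overlapped, and their log2 difference was -0.02 (adjusted p = 0.958, edgeR), while Both over Stem was 3.58 (adjusted p = 1.18e-10, edgeR). *Loxl2* and *Loxl4* of the same family rose by 2.51 and 1.99, while *Loxl1* and *Loxl3* were at 0.31 and 0.78 and were not called. *Adamts2*, which trims the amino-terminal propeptide of procollagen, fell by 1.20 on the log2 scale. Of the 29 members on collagen processing, 8 rose (27.6%) and 2 fell (6.9%), beside 9.55% and 13.2% of all genes, with a median of 0.69.

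**Figure D3:**
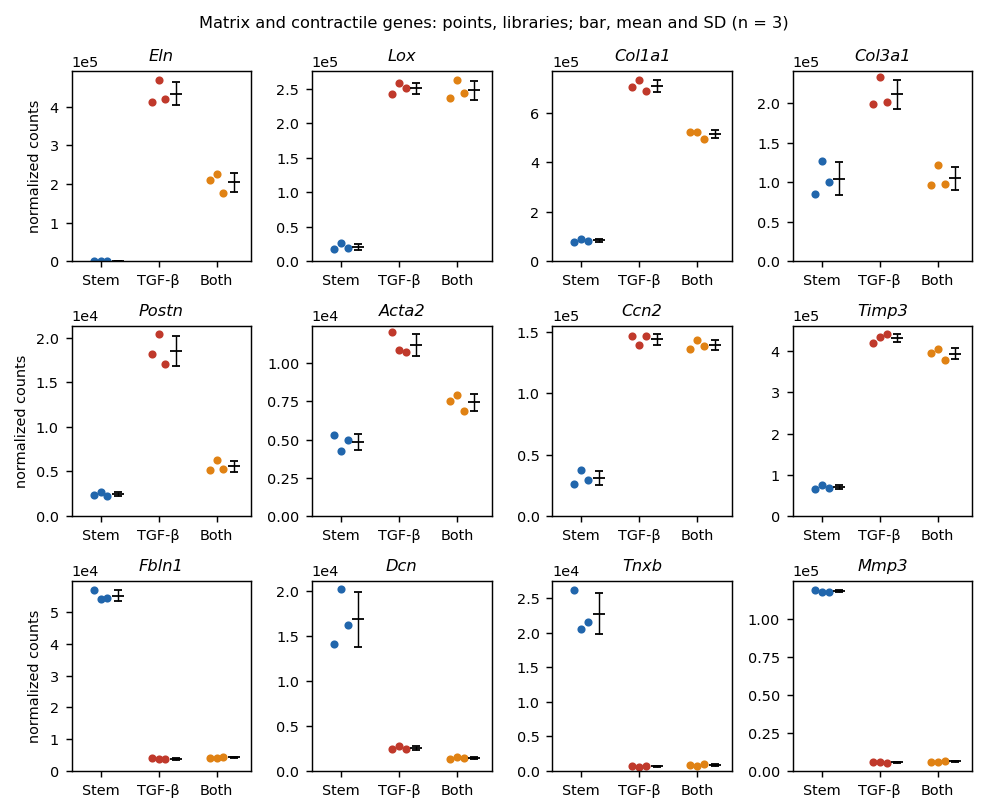
Normalized counts (vertical axes, each starting at 0) of 12 matrix and contractile genes in the Stem, TGF-β and Both libraries. Points are single libraries and bars are the mean and SD (n = 3); Both lies between Stem and TGF-β for *Eln*, *Col1a1*, *Postn* and *Acta2*, overlaps Stem for *Col3a1* and overlaps TGF-β for *Lox*.

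Matricellular proteins, which sit in the matrix and signal to cells, gave values close to those of TGF-β in *Ccn2*, *Ccn4* and *Cthrc1*, and values between Stem and TGF-β in *Postn*. *Ccn2* (connective tissue growth factor) had 26485, 37352 and 29419 in Stem and 136226, 143885 and 138971 in Both, a log2 fold change of 2.17 (adjusted p = 1.41e-09, edgeR), beside 2.21 for TGF-β over Stem. *Ccn4* rose by 3.34, and *Cthrc1*, a marker of collagen-producing fibroblasts, by 3.15. *Postn* (periostin, a classic myofibroblast product) had 2401, 2727 and 2258 in Stem, 5163, 6244 and 5246 in Both and 18173, 20383 and 17015 in TGF-β. It still rose in Both, by 1.17 (adjusted p = 1.83e-07, edgeR), but its log2 fold change against TGF-β was -1.74 (adjusted p = 2.09e-06, edgeR). *Fn1* (fibronectin) was at 0.40, under the 2-fold minimum. *Tnxb* (tenascin-X) fell from 26230, 20531 and 21613 to 899, 626 and 931, a log2 fold change of -4.80, and *Tgfbi* fell by 2.08 on the log2 scale. *Tnn* (tenascin-W) fell from 469, 41.3 and 193 to 1.8, 0 and 4.39, with Stem libraries that differed more than 10-fold among themselves. In all 8 of 21 rose (38.1%) and 5 fell (23.8%), beside 9.55% and 13.2% of all genes, and the median was 0.21.

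Proteoglycans were listed together, both the small leucine-rich ones, which coat collagen fibrils and set their spacing, and the large ones. *Dcn* (decorin) had 14148, 20186 and 16281 in Stem and 1345, 1545 and 1470 in Both, with 2427, 2764 and 2407 in TGF-β. The log2 fold change was -3.54 (adjusted p = 7.75e-11, edgeR), and Both was lower than TGF-β as well, at -0.80 (adjusted p = 0.00103, edgeR). *Lum* (lumican) and *Ogn* (osteoglycin) fell by 2.35 and 2.71 on the log2 scale. *Acan* (aggrecan, the large proteoglycan of cartilage) was undetected in Stem, which here means at most 3 counts a library, and rose. Of 16 members tested 3 rose (18.8%) and 8 fell (50.0%), beside 9.55% and 13.2% of all genes. The median was -0.50, or -1.12 when only the 6 libraries were fitted. 

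The list of matrix proteases and their tissue inhibitors was split between rises and falls, and not all members called are named here. Stromelysin-1, *Mmp3*, which degrades proteoglycans and activates other proteases, had 119150, 117707 and 117621 in Stem and 5996, 5778 and 6579 in Both, a log2 fold change of -4.27 (adjusted p = 1.22e-13, edgeR). The proteoglycan-cleaving *Adamts9* and *Adamts15* had log2 fold changes of -5.44 and -4.73. The inhibitors *Timp3* and *Timp1* rose, *Timp3* from 69932 ± 4507 to 393671 ± 13816 (SD, n = 3 each) and *Timp1* from 2800 ± 152 to 12404 ± 686, and *Adamts12* rose by 1.94. The counts were 8 up (33.3%) and 7 down (29.2%) among 24 members, beside 9.55% and 13.2% of all genes. With scaling by total counts they were 8 and 10. The median was -0.47, and taken in each Both library against the Stem mean it was -0.61, 0.01 and -0.37.

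Contractile genes were called about as often as all genes. *Acta2*, the smooth muscle actin that defines the myofibroblast, had 5287, 4257 and 4955 in Stem, 7554, 7939 and 6850 in Both and 12040, 10862 and 10743 in TGF-β. Both lay between Stem and TGF-β without overlap, at a log2 fold change over Stem of 0.62 (adjusted p = 1.57e-05, edgeR) that missed the 2-fold minimum, and at -0.59 against TGF-β (adjusted p = 0.00068, edgeR). *Tagln* (SM22α) rose by 1.16, *Tagln2* also rose, and *Pdlim7*, an actin-bound adaptor, rose by 1.27. *Myocd*, the coactivator of the smooth muscle program, was undetected in Stem and had 21.6, 22.7 and 24.6 in Both, at least 7.14-fold higher. *Myh11*, the myosin heavy chain of mature smooth muscle, had 335, 199 and 256 in Stem, 45, 64.2 and 45.6 in Both and 110, 71 and 84 in TGF-β. Its log2 fold change was -2.36 (adjusted p = 1.08e-06, edgeR), that of *Mylk* (myosin light chain kinase) -2.52 and that of *Itga8* -3.96. *Cnn1* (calponin) stood at -0.81 and *Mrtfa*, a coactivator of SRF, at -0.77, both with an adjusted p below 0.05 but under the 2-fold minimum. Of 33 members 6 rose (18.2%) and 3 fell (9.09%), 27.3% in all beside 22.8% of all genes, and the median was -0.34.

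The CArG box, the element that SRF binds, was searched on both strands of 300-base promoter windows from RefSeq (GRCm38.p6) and was found in 1.63% of 32851 windows. It was in a window of 6 contractile genes, *Myl9*, *Vcl*, *Fhl2*, *Srf*, *Myl6* and *Fhl1*, counted by gene and not by window. None of them was called, beside 22.8% of all genes, and 6 genes are too few to be set against that share. Their log2 fold changes were -0.82, -0.68, -0.50, -0.38, 0.01 and 0.25. At an adjusted p below 0.05 (edgeR), *Myl9*, *Vcl*, *Fhl2* and *Srf* were lower and *Fhl1* higher in Both, each by less than 2-fold. Only 3 of the 6 contractile genes that rose and 2 of the 3 that fell had a window to search. Of the 24 not called, 21 had one.

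More progenitor genes fell than rose. *Ly6a*, which encodes the Sca1 antigen used to sort the cells, had 6557, 8441 and 7908 in Stem and 762, 800 and 640 in Both, with 855, 1094 and 875 in TGF-β. All Both libraries lay under all others, at a log2 fold change over Stem of -3.38 (standard error 0.118, adjusted p = 1.17e-10, edgeR). *Cd34*, a sialomucin of progenitors, fell from 336, 435 and 366 to 17.1, 10.9 and 12.3, a log2 fold change of -4.80 (adjusted p = 3.75e-10, edgeR). *Pdgfra*, the PDGF receptor of mesenchymal progenitors, had a log2 fold change of -2.86, *Scara5*, a ferritin receptor, one of -4.79 and *Clec3b* (tetranectin) one of -7.66. 

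In the same list, *Pi16*, a marker of adventitial fibroblasts, had 508, 530 and 485 in Stem, 3709, 4136 and 3641 in Both and 5650, 5950 and 5713 in TGF-β. That was a rise of 2.91 (adjusted p = 1.5e-12, edgeR), and Both was lower than TGF-β by -0.59 on the log2 scale. *Ackr3*, a scavenging receptor for CXCL12, went past the TGF-β level: it had 1649, 2082 and 1779 in Stem, 9474, 8828 and 8980 in Both and 6498, 6183 and 6420 in TGF-β. *Anxa3* rose by 1.13. *Gli1*, the hedgehog effector, was undetected in Stem and had 7.2, 20.7 and 12.3 in Both, at least 4.17-fold higher, and *Klf4*, a pluripotency and smooth muscle switch factor, was at 0.63 (adjusted p = 7.8e-09, edgeR), under the 2-fold minimum. Of 22 members 12 (54.5%) fell and 4 (18.2%) rose, beside 13.2% and 9.55% of all genes, with a median of -1.16. The list includes *Ly6a* and *Cd34*, which the study uses as stemness markers of these cells, so its direction is not independent evidence.

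**Figure D4:**
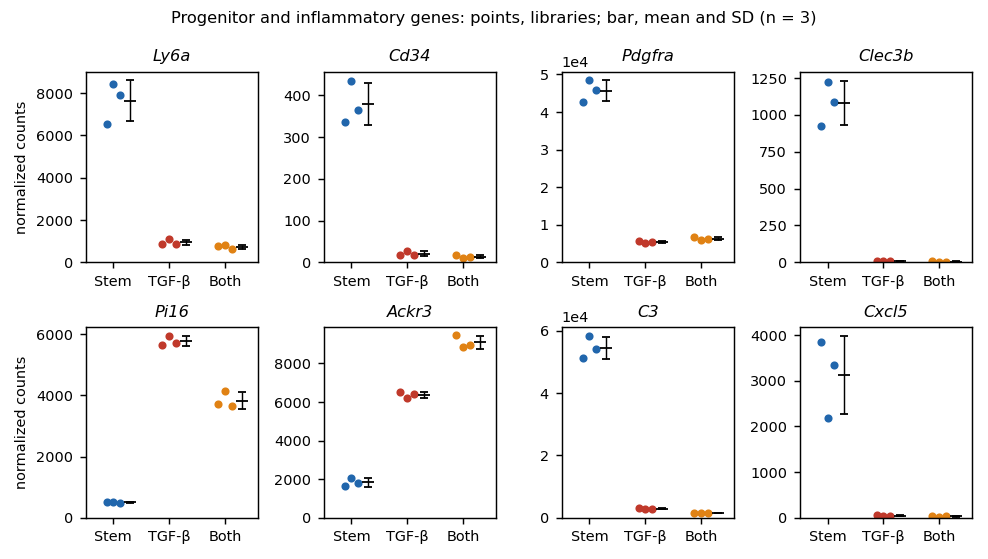
Normalized counts (vertical axes, each starting at 0) of 8 progenitor and inflammatory genes in the Stem, TGF-β and Both libraries. Points are single libraries and bars are the mean and SD (n = 3); *Ly6a*, *Cd34*, *Pdgfra*, *Clec3b*, *C3* and *Cxcl5* are high in Stem alone, whereas *Pi16* and *Ackr3* are high in both stimulated groups.

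Targets and feedback genes of the TGF-β pathway included several close to the TGF-β level. *Pmepa1*, a feedback inhibitor that holds SMADs from the receptor, had 5054, 4191 and 4793 in Stem, 40113, 36586 and 38035 in Both and 35430, 33931 and 35627 in TGF-β. All Both libraries lay above those of the other groups, at a log2 fold change over Stem of 3.03 (standard error 0.0666, adjusted p = 2.54e-12, edgeR) and of 0.13 against TGF-β (adjusted p = 0.229, edgeR). *Il11*, a profibrotic cytokine, rose by 3.43, and *Nox4*, an oxidase induced by TGF-β, by 2.84. Other feedback genes, *Smad7* and *Skil*, stood at 1.03 and 1.58 in Both and at 1.04 and 1.58 in TGF-β over Stem. The ligand gene *Tgfb1* rose from 1162, 1016 and 1121 to 3989, 3918 and 4218. The receptor gene *Tgfbr1* had a log2 fold change of 0.02 with a 95% interval from -0.10 to 0.13, while the coreceptor *Tgfbr3* fell by 3.29 on the log2 scale. *Id1* and *Id2*, inhibitors of DNA binding that BMP signaling induces, fell by 2.64 and 3.16. Of 26 members 10 rose (38.5%) and 6 fell (23.1%), beside 9.55% and 13.2% of all genes. The median was 0.10, and it turned to -0.01 when libraries were scaled by total counts.

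Of 28 genes of ERK feedback and the immediate early response, 12 (42.9%) fell and 1 (3.57%) rose, beside 13.2% and 9.55% of all genes. The labels give FGF2 and EGF for the maintenance medium and not for the DMEM of Both, and the part of the medium cannot be told apart. The ETS factor *Etv1* fell from 2701, 2757 and 2792 to 285, 202 and 262, a log2 fold change of -3.46 (adjusted p = 2.44e-11, edgeR). The feedback inhibitors *Spry2* and *Spry1* fell by 2.68 and 2.23 on the log2 scale. *Spry2* had 1132, 1129 and 1204 in Both, above the 854, 870 and 818 in TGF-β. *Ier3*, an early response gene, was the 1 member that rose, by 1.62, and it was higher in Both than in TGF-β by 0.84 (adjusted p = 8.23e-05, edgeR). Of the Fos and Jun genes, *Fosl1*, *Fos*, *Junb* and *Fosl2* were at 0.998, 0.78, 0.75 and 0.33, and *Jun* was at -0.49. Each of these had an adjusted p below 0.05 (edgeR) but stayed under the 2-fold minimum. *Fosb* was at 0.22 (adjusted p = 0.394, edgeR). The list had a median of -0.57.

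Chemokine and complement genes were the list with the lowest median. *C3*, the hub of the complement cascade, had 51356, 58286 and 54213 in Stem, 1437, 1435 and 1544 in Both and 3028, 2821 and 2891 in TGF-β. Both was lower than Stem by a log2 fold change of -5.21 (adjusted p = 3.24e-14, edgeR) and lower than TGF-β by -0.98 (adjusted p = 2.76e-06, edgeR). *Cxcl5* and *Cxcl1*, which draw neutrophils, had log2 fold changes of -6.70 and -4.62, and *Ccl2*, which draws monocytes, fell by 3.15 on the log2 scale, from 1022, 735 and 837 to 107, 73 and 110. *C7*, a component of the membrane attack complex, fell by 7.05. In contrast *Il6* had 64.9, 96.7 and 96.3 in Stem and 1125, 1267 and 1201 in Both, a rise of 3.80 (adjusted p = 4.03e-11, edgeR), and *Lif*, of the same cytokine family, rose by 3.20. Of 22 members tested 16 (72.7%) fell and 2 (9.09%) rose, beside 13.2% and 9.55% of all genes. The median was -2.09, and *Tnf* and *Il1b* had 0 counts in every library.

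Targets of ATF4, the transcription factor of the amino acid and integrated stress response, had the highest median of the 20 lists. Of 26 members 20 (76.9%) rose and 0 fell, beside 9.55% and 13.2% of all genes. The median log2 fold change was 1.90 beside 2.40 for TGF-β over Stem. They serve serine, glycine and proline synthesis (*Phgdh*, *Mthfd2*, *Pycr1*), asparagine synthesis (*Asns*), amino acid import (*Slc7a5*, *Slc7a11*, *Slc7a3*) and stress signaling (*Ddit3*, *Atf3*, *Trib3*, *Chac1*). *Trib3*, a pseudokinase that feeds back on ATF4, had 36.6, 57.6 and 31.4 in Stem, 1659, 2126 and 1735 in Both and 2551, 3113 and 2801 in TGF-β. Each Both library lay above Stem and below TGF-β, at a log2 fold change over Stem of 5.46 (adjusted p = 4.22e-11, edgeR). *Mthfd2*, a mitochondrial folate enzyme, rose by 3.65, *Chac1*, which degrades glutathione, by 3.27, and *Atf4* itself by 1.62. *Fgf21*, a stress-induced hormone, had 0 counts in all Stem libraries and 54.9, 46.4 and 39.5 in Both, at least 14.6-fold higher. Tested directly against TGF-β, 17 of the 26 were lower in Both at an adjusted p below 0.05 and 0 higher, with *Slc7a3* past the 2-fold minimum (edgeR). Over all 14879 genes 800 were lower and 527 higher at that adjusted p. *Psat1*, a serine synthesis gene, was at -0.13 with a 95% interval from -0.27 to 0.01.

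The composite element that ATF4 and C/EBP factors share was searched as TGATGNAA on both strands of the RefSeq promoter windows, a search made after the values had been seen. It was found in 3.97% of all 32851 windows. Of the 20 genes that rose, 18 were in the promoter table and 8 held it: *Fgf21*, *Trib3*, *Chac1*, *Atf3*, *Pycr1*, *Asns*, *Slc1a4* and *Slc7a11*. Of the 6 members not called, 5 were in the promoter table and 1 held it. A gene was counted if any of its windows held the element, so these counts and the share of windows are unlike measures. The list was drawn up as ATF4 targets, so finding the element in its members is not independent evidence. The 4 sequences below show where it lies in a hormone gene, a glutathione enzyme gene, a transcription factor gene and the cystine importer gene, which has 2 copies close together. They are the 250 bases before the annotated start, 5′ to 3′ on the strand of the gene, from RefSeq on GRCm38.p6, which is not the build of the counts. Capitals mark the element. The *Fgf21* window is chr7:45615491-45615740 (minus strand) and its element begins 139 bases before the start. The *Chac1* window is chr2:119350992-119351241 (plus strand), with the element 193 bases before the start. The *Atf3* window is chr1:191183334-191183583 (minus strand), with the element 110 bases before the start. The *Slc7a11* window is chr3:50443614-50443863 (minus strand), and the first of its elements begins 66 bases before the start.
Fgf21: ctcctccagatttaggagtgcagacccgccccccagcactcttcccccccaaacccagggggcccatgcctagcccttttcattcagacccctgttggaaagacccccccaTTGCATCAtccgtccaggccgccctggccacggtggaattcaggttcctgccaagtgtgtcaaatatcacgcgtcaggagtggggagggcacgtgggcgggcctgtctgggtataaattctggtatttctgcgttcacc
Chac1: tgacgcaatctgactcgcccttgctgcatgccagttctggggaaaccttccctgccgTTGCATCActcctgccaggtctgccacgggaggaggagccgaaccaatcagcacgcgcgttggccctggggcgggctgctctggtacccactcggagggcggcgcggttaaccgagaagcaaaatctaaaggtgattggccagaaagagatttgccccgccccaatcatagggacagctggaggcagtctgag
Atf3: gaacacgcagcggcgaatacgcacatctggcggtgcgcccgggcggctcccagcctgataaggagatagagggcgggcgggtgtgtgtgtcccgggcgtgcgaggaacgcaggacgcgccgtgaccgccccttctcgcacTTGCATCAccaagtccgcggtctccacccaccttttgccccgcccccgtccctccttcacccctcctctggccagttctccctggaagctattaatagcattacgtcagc
Slc7a11: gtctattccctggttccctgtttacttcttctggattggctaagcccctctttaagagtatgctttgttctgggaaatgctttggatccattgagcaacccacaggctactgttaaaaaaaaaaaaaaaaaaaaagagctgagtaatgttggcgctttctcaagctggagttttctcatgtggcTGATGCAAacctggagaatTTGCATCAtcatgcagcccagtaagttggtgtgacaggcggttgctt
Of the genes shown, *Slc7a11* had 158, 142 and 163 normalized counts in Stem, 632, 728 and 628 in Both and 1010, 1115 and 1133 in TGF-β. In the same order *Atf3* had 9.42, 10.9 and 9.74, then 81.9, 83.9 and 91.3, then 112, 87.2 and 93.7. The part of the element in these values was not tested.

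Interferon-response genes formed the list whose median differed most among the Both libraries. *Bst2* (tetherin) had 689, 1187 and 1292 in Stem, 7793, 5480 and 2434 in Both and 2214, 2450 and 2453 in TGF-β, and Both 3 lay within the range of TGF-β. Its log2 fold change was 2.31 (standard error 0.341, adjusted p = 6.15e-05, edgeR). *Isg15*, an interferon-induced ubiquitin-like modifier, had 316, 589 and 647 in Stem and 2440, 1660 and 537 in Both, so that Both 3 lay inside the Stem range; the call (1.58, adjusted p = 0.00452, edgeR) rests on Both 1 and Both 2. *Usp18*, which removes ISG15, was at 1.41, and without Both 1 it was no longer called, at 0.95 (adjusted p = 0.0407, edgeR). Another 3 members of antigen processing and interferon-γ signaling fell with less spread: *Psmb8*, an immunoproteasome subunit, by 2.65 on the log2 scale, *Gbp2* by 1.75 and *Irf1* by 1.39. Of 31 members 8 rose (25.8%) and 5 fell (16.1%), beside 9.55% and 13.2% of all genes. Without Stem 2 the counts were 10 and 3, without Both 3 they were 11 and 4, and without Stem 1 or without Both 1 they were 6 and 5. The median over the list, taken in each Both library against the Stem mean, was 0.90, 0.44 and -0.36.

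**Figure D5:**
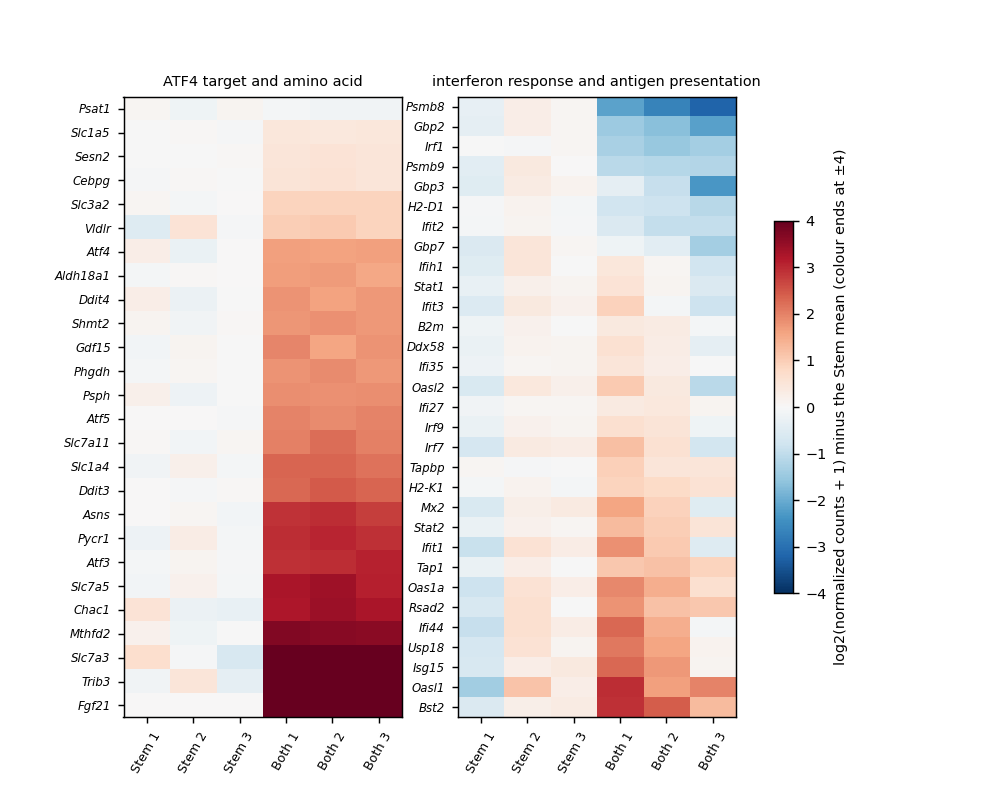
Heat maps of log2(normalized counts + 1) minus the mean of the Stem libraries, 1 row per gene and 1 column per library of Stem and Both; the colour scale ends at -4 and 4. The ATF4 list is alike in the 3 Both libraries, whereas the upper interferon genes fall and the lower ones rise most in Both 1 and least in Both 3.

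Of 25 sterol synthesis genes 15 rose, 0 fell and 10 were not called, whereas 9.55% of all genes rose and 13.2% fell. The median of the list was 1.13 beside 1.10 for TGF-β over Stem. *Ebp*, the sterol isomerase, had 1146, 1231 and 1190 in Stem and 3981, 3590 and 4389 in Both, a log2 fold change of 1.75 (adjusted p = 2.79e-10, edgeR). The groups did not overlap. *Insig1*, the sterol-regulated brake of the pathway, rose by 1.75, and *Idi1*, an isomerase of its early steps, by 1.67. *Fasn* and *Scd1*, which make and desaturate fatty acids, are counted in the adipogenic list and not here, and rose by 1.88 and 1.82. *Srebf2*, the regulator of the sterol pathway, stood at 0.08 with a 95% interval from 0.01 to 0.15.

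Among cell cycle genes 11 of 49 rose (22.4%) and 0 fell, beside 9.55% and 13.2% of all genes, with a median of 0.55. The share called in either direction, 22.4%, was close to the 22.8% of all genes. *Rrm2*, a subunit of the enzyme that makes deoxynucleotides, had 228, 293 and 275 in Stem and 845, 947 and 909 in Both, a rise of 1.76, and *Tyms* (thymidylate synthase) rose by 1.21. *Ccna2* (cyclin A2) had 48.2, 94.5 and 69.2 in Stem and 134, 167 and 156 in Both; it was at 1.11, and at 0.90 without Stem 1. The proliferation marker *Mki67* was at 0.75, under the 2-fold minimum. Among inhibitors of the cycle and p53 targets, *Cdkn1c*, the imprinted inhibitor p57, fell from 1070, 1128 and 1110 to 17.1, 8.88 and 15.8, a log2 fold change of -6.28 (adjusted p = 2.05e-11, edgeR). *Cdkn1a* (p21) rose by 1.53, and the growth arrest genes *Gadd45b* and *Gadd45g* by 2.81 and 2.38. The death receptor gene *Tnfrsf10b* rose by 1.63. Of 24 such genes 5 rose (20.8%) and 1 fell (4.17%), beside 9.55% and 13.2% of all genes, and the median was 0.46.

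Among 24 cartilage, bone and tendon genes 9 rose (37.5%) and 4 fell (16.7%), beside 9.55% and 13.2% of all genes, with a median of 0.47. *Scx* (scleraxis), the tendon factor, had 8.38, 4.35 and 3.25 in Stem and 93.6, 122 and 95.7 in Both, a rise of 4.24, and *Spp1* (osteopontin) rose by 1.35, while *Sox9*, the cartilage factor, was at -0.14 with a 95% interval from -0.27 to -0.01. *Prg4* (lubricin) and *Matn2* fell by 2.54 and 1.37 on the log2 scale. Among 14 adipogenic genes 3 rose (21.4%) and 6 fell (42.9%), beside 9.55% and 13.2% of all genes, with a median of -0.62. *Lpl*, which releases fatty acids from lipoproteins, fell from 1168, 2019 and 1504 to 10.8, 23.7 and 14.9, a log2 fold change of -6.58 (adjusted p = 6.48e-10, edgeR). Its inhibitor *Angptl4* fell by 3.88 and *Klf15* by 2.66. The members that rose were *Fasn* and *Scd1*, given above, and the preadipocyte factor *Zfp423*, by 1.61. 

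Growth factors and receptors changed in both directions, 11 of 42 up (26.2%) and 16 down (38.1%) with a median of -0.81. Of all genes 9.55% were up and 13.2% down. *Agtr2*, the type 2 angiotensin receptor, had 931, 1126 and 1174 in Stem and 0, 0 and 1.76 in Both, at least 389-fold lower. *Ednrb*, an endothelin receptor, and *Igfbp4*, which binds IGF, fell by 3.55 and 3.45 on the log2 scale. *Igf1* had 2009, 1110 and 1639 in Stem and 12548, 12226 and 11538 in Both, a rise of 2.93 (adjusted p = 4.17e-09, edgeR). *Pdgfc* rose from 259 ± 26.3 to 2603 ± 203 (SD, n = 3 each), or 3.33 on the log2 scale, and *Fgf18* by 3.12.

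None of the 32 tested BAF complex and bromodomain genes was called between Stem and Both, beside 22.8% of all genes. For 31 of them the 95% interval lay within -1 and 1, beside 9699 of all 14879 genes. *Smarca4* had 4460, 3854 and 4211 in Stem, 5029, 4907 and 4948 in Both and 5162, 5101 and 5059 in TGF-β, a log2 fold change of 0.25 over Stem (adjusted p = 0.000505, edgeR) and of -0.04 against TGF-β (adjusted p = 0.654, edgeR). *Smarca2*, the alternative ATPase, had 7801, 6806 and 7665 in Stem and 4386, 3992 and 4191 in Both, at -0.83 (adjusted p = 3.56e-08, edgeR). By an adjusted p below 0.05 alone (edgeR) most of the list differed, each gene by less than 2-fold, and more were lower than higher in Both. *Smarca2*, *Arid1a* (-0.65), *Arid2* (-0.57), *Ep300* (-0.53) and *Crebbp* (-0.50) were among those lower. *Smarca4*, *Smarcd3*, *Brd2* (0.58) and *Phf10* (0.48) were among those higher. The median of the list was -0.20. The largest value was that of *Smarcd3*, at 0.98, and without Stem 1 the list had 1 gene called higher.

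The largest rises, among genes that averaged 100 normalized counts or more and were detected in Stem and in Both, were led by *C1qtnf3*, a secreted relative of adiponectin. It had 4.19, 4.35 and 6.49 in Stem, 7298, 7810 and 6740 in Both and 6894, 7146 and 6856 in TGF-β, a log2 fold change of 10.47 (adjusted p = 2.24e-14, edgeR). Both and TGF-β overlapped (0.06, adjusted p = 0.489, edgeR). *Crabp2*, a retinoic acid carrier, rose by 6.51 and was lower in Both than in TGF-β by -1.30 (adjusted p = 0.000605, edgeR). After *Eln*, the order went on with *Crabp2*, the integrin subunit *Itga4* (6.41), *Fbxo40* (6.01), the cadherin *Cdh10* (5.89), the desmosomal plaque gene *Dsp* (5.70), *Klhl30* (5.63), *Olfm2* (5.48) and *Trib3* (5.46). Some had Stem values near the limit of 3 counts: *Crabp2* 4.19, 7.61 and 3.25, and *Fbxo40* 6.28, 8.69 and 2.16. *Cdh10* had 3.14, 4.35 and 6.49 there, and *Klhl30* 0, 6.52 and 5.41. Their fold changes and their order rest on few Stem counts. Against TGF-β, *Dsp* stood at -0.80, *Fbxo40* at -0.74, *Itga4* at -0.52 and *Cdh10* at -0.07.

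Of genes undetected in Stem, those with the largest lower bounds were *Ighm* (at least 52.5-fold higher in Both), *Wnt10b* (47.8-fold) and *Atp2a3* (45.4-fold). *Wnt10b*, a Wnt ligand, had 0 in all Stem libraries, 148, 174 and 140 in Both and 233, 323 and 287 in TGF-β. *Atp2a3* encodes a calcium pump of the endoplasmic reticulum, and *Ighm* an immunoglobulin heavy chain, at 169, 138 and 199 in Both. Of the 7 leukocyte markers, *Adgre1*, *Aif1* and *Itgam* had 0 counts in every library, whereas *Csf1r* had 33, 17 and 30 raw counts in Stem and 150, 145 and 156 in Both, *Cd68* had 7, 1 and 2 against 17, 11 and 19, and *Ptprc* 0 in Stem against 2, 1 and 3. The part of such cells in the *Ighm* value was not tested. Of genes undetected in Both, *Agtr2* was followed by the ephrin receptor *Ephb1* (587, 253 and 459 in Stem, 0 in every Both library, at least 157-fold lower) and *Egfl6* (at least 54.6-fold lower).

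The largest falls among genes seen in both groups were those of *Clec3b* (-7.66), *Sfrp2* (-7.61), *Col6a5* (-7.59), *Abca8a* (-7.26), *Col6a6* (-7.08), *C7* (-7.05), *Tnn* (-6.70), *Cxcl5* (-6.70), *Lpl* (-6.58) and *Tril* (-6.38). *Clec3b* had 926, 1226 and 1090 in Stem and 8.1, 2.96 and 4.39 in Both. *Abca8a*, a lipid transporter, had 3456, 5947 and 4462 in Stem, 42.3, 27.6 and 20.2 in Both and 88.5, 83.2 and 92.8 in TGF-β. *Tril*, an accessory protein of Toll-like receptor 4, had 653, 353 and 558 in Stem and 8.1, 5.92 and 4.39 in Both. 

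Some genes were called in Both against Stem and again, in the same direction, against TGF-β, and those that averaged 100 normalized counts or more are given here. *Sfrp2*, a secreted Wnt antagonist, had 2269, 3339 and 2746 in Stem, 79.9, 58.8 and 59.6 in TGF-β and 12.6, 18.8 and 11.4 in Both, a log2 fold change of -2.21 against TGF-β (adjusted p = 0.00203, edgeR). *Nfasc* (neurofascin) and *Ccl9*, a chemokine, were at -1.57 and -1.56 against TGF-β, on top of falls from Stem of -3.56 and -3.76. *Bst2* met the same conditions in the other direction, at 1.14 against TGF-β (adjusted p = 0.047, edgeR).

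In other genes called between Stem and TGF-β, the 95% interval of Both over Stem lay within -1 and 1. The 5 with the largest rise in TGF-β were *Gng2*, *Snhg12*, *Cdkn2b*, *Ralgapa2* and *Mcam*. *Cdkn2b*, the inhibitor p15 and a TGF-β target, had 1421, 1451 and 1416 in Stem, 3670, 3682 and 3657 in TGF-β and 2582, 2536 and 2646 in Both, so Both over Stem was 0.86 and TGF-β over Stem 1.36. *Mcam*, an adhesion molecule of perivascular cells, had 94.2, 80.4 and 89.8 in Stem, 265, 180 and 201 in TGF-β and 130, 135 and 115 in Both. The 5 with the largest fall in TGF-β were *Slfn2*, *Izumo4*, *Sgk1*, *Peg3* and *Dixdc1*. *Slfn2* had 472, 491 and 528 in Stem, 163, 200 and 205 in TGF-β and 495, 346 and 209 in Both. Its Both 1 lay in the Stem range and its Both 3 close to TGF-β, and the interval ran from -0.98 to -0.03. *Sgk1*, a serum- and steroid-responsive kinase, had 6895, 5707 and 6174 in Stem, 2729, 2565 and 2743 in TGF-β and 4369, 4000 and 4479 in Both. *Peg3*, an imprinted zinc finger gene, had 2237, 1799 and 2040, then 998, 770 and 873, then 1423, 1168 and 1327 in the same order. In *Sgk1* and *Peg3* the 3 groups were apart and Both lay in the middle. These genes were chosen by their values in these libraries and are given as a description.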

How the data were processed

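Ribo-depleted total RNA was sequenced as paired 150-base reads in 9 libraries, 3 per group. The authors deposited raw counts of reads per Ensembl gene, without normalization. The study's methods give trimming with Flexbar and alignment with STAR, whereas the submitters' processing notes list HISAT2 2.2.1, SAMtools 1.13 and HTSeq 0.11.3, with GRCm39. The strand setting and the handling of multiply aligned reads are not given in the sources used here, so overlapping, antisense and near-identical genes carry an uncertainty. No column was left out (0).

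The tools were R 4.3.3, edgeR 4.0.16 and limma 3.58.1. Genes were kept by filterByExpr, scaled by TMM and fitted to the 9 libraries jointly, with no covariate beside group, by glmQLFit and glmQLFTest (prior count 0.125) with Benjamini-Hochberg adjustment. Calls needed an adjusted p of 0.05 and 2-fold. A group in which no library had more than 3 counts of a gene was taken as undetected, 2.63 to 3.26 normalized counts, and its fold is a lower bound from 3 counts, for counting error only. An exact permutation test on 3 against 3 libraries could not reach 0.05 and was not used.

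Genes named were those the study names, the 10 largest rises and falls that averaged 100 normalized counts or more without overlap, the 3 largest bounds each way, up to 3 per list and direction, 5 each way called in TGF-β over Stem with an interval of Both over Stem within 2-fold, and up to 3 each way called against both other groups. Not all are printed, and other list members were named after their values were seen. Comparison, rule and lists were chosen with earlier results of these data known.

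Of 55416 Ensembl identifiers 52083 had a symbol and 67 symbols were borne by several. Promoter windows (250 bases before to 50 after the start) matched by symbol for 70.3% of tested, 68.7% of called-higher and 51.0% of called-lower genes, too few to compare motif shares. The planned rule for printed promoters (contractile genes that rose with a CArG box, cell cycle genes that fell with CCAAT and TTTGAA) found no gene, so those shown were chosen after the values were seen. The alternatives were DESeq2 1.42.0, its size factors, total counts, no filter, a mean of at least 10 counts, only the 6 libraries, no fold minimum, a prior count of 2, a replicate block, TREAT and leaving out each library. The pipeline was tested on simulated data. Some genes are not reported here by name.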

Additional observations from a re-analysis of the deposited data

How the results depend on the processing

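The number of genes called depended most on the fold minimum. Without it 10900 genes passed, 5453 higher and 5447 lower, while TREAT in edgeR, which tests against 2-fold itself, passed 2104, of which 1145 were lower. The other alternatives gave between 3056 (mean of at least 10 counts) and 4178 (no filter on low counts), DESeq2 3313, and leaving out 1 library between 3435 and 3618. Scaling by total counts shifted the median over all genes from -0.005 to -0.113 (log2), and 35.5% in place of 42% of the calls were then higher in Both. Single genes were not recomputed without the fold minimum or with TREAT. Under the other alternatives, where they could be fitted, 132 of 135 named genes kept their direction and call. *Col3a1*, not called under any of these, changed sign: its log2 fold change was -0.094 with total counts, -0.003 with the mean of at least 10 counts, and between -0.111 and 0.184 with 1 library left out. *Ccna2* lost its call without Stem 1 (0.899) and *Usp18* without Both 1 (0.952). The median of the TGF-β target list was -0.013 with total counts; the cause was not tested. Same-numbered Stem and Both libraries had correlations of their deviations of 0.0801, 0.43 and -0.0463, and differently numbered ones between -0.415 and 0.328. Same-numbered TGF-β libraries gave 0.249, 0.376 and 0.0474 with Stem and 0.184, 0.439 and 0.0739 with Both. Whether a number marks a shared culture cannot be told from 3 libraries per group. A replicate block gave 3394 calls, 1424 higher and 1970 lower. Depth limits genes of few counts, such as *Acan*, *Gli1* and *Fgf21*, to bounds, and 3 libraries per group limit every interval.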
